A study of Mus musculus with 8 samples.

Results

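The genes described here lie within 3 Mb of Myrf on mouse chromosome 19. They are the genes of the deposited count table with a first base between 7208272 and 13208272 (GRCm38). Myrf itself and symbols that begin with Olfr, begin with Gm and digits or end in Rik were left out, which leaves 159 of 55401 genes. The window held 279 genes in all, of which 48 were Olfr, 60 Gm and 11 Rik genes. RNA had been sequenced from whole embryonic lung at E13.5, with 4 libraries of cre control embryos and 4 of embryos labelled Tbx4tetOcre and MyrfE6. In the usual design behind such a name, regulatory sequence of Tbx4, a T-box gene of lung mesenchyme, drives a tetracycline-controlled Cre recombinase, which recombines a conditional allele only in cells with a history of Cre activity. The labels do not explain the MyrfE6 allele, the doxycycline schedule, or which allele of Myrf and which transgenes the controls carry. They also name no strain, sex or litter, so the p-values below measure only the spread between these libraries, which may be technical in part.

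Genes that sit beside a targeted gene are worth following for a pair of reasons. A modified allele can alter transcription of its neighbours, because enhancers and boundary elements are shared along a chromosome. A modified allele is also inherited with the stretch of chromosome around it, so in a mixed background mutants and controls can carry different strain variants of nearby genes. The counts hold no sequence of the reads, so alleles were not compared, and a part of such variants in any difference below was not tested. The gene-dense region around Myrf holds the fatty acid desaturases Fads1, Fads2 and Fads3, DNA repair and RNA processing genes, and the Ms4a family, which encodes small membrane proteins found mostly on leukocytes.

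Promoter windows of 3 genes are printed because they mark how differently the members' promoters are built. They come from RefSeq on GRCm38.p6, which had windows for 93 of the 159 genes, and each is the 250 bases upstream of a transcription start, 5′ to 3′. Fads3, a widely transcribed gene, lies at chr19:10041298-10041547, plus strand, with its 26 CG pairs in capitals. Ms4a6c, a leukocyte gene, lies at chr19:11469118-11469367, plus strand, with its 2 CG pairs in capitals. The window of Prpf19 lies upstream of an internal start inside that gene, at chr19:10898395-10898644, plus strand. It carries in capitals the letters GTGCCAG, the reverse complement of CTGGCAC, which is one form of the motif reported for the MYRF protein.
Fads3: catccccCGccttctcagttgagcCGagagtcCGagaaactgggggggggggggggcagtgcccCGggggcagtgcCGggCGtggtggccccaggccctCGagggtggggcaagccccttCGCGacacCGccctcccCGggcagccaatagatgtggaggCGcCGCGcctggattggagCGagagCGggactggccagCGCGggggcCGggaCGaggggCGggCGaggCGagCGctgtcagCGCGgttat
Ms4a6c: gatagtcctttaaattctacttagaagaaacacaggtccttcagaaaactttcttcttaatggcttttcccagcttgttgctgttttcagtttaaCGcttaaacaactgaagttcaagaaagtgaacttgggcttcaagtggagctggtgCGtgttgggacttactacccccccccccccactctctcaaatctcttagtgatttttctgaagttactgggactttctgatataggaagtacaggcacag
Prpf19: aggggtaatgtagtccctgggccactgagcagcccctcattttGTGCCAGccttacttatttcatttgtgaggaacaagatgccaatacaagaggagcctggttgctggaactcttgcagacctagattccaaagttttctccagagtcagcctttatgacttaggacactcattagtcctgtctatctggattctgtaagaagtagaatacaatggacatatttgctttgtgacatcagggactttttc

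Of all 32851 promoter windows of this length, 9.59% had at least as many CG pairs as Fads3 and 29% had no more than Ms4a6c. The median number of CG pairs was 12 in windows of members with enough counts to be tested, 1 in windows of the other members and 6 in all windows. The letters CTGGCAC or CTGGTAC, searched on both strands, stood in windows of 6 members, namely Bscl2, Scgb2a2, Prpf19, Ms4a5, Ms4a14 and Ms4a4c. They stood in 5.26% of the members' windows and in 5.93% of all windows. The match is a description of letters and not a binding site.

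Library totals ran from 17799899 to 48679134 counts, and the 159 genes held 0.831% of all counts. Levels are given in CPM, counts per M (mega) counts after TMM scaling, and 3 counts correspond to 0.169 CPM in the smallest library. The libraries differed in sex-linked transcripts. Both Xist and Y-linked genes were counted in control replicates 1 and 4 and mutant replicates 3 and 4, Xist with at most a trace of Y-linked counts in control replicates 2 and 3, and Y-linked genes with almost no Xist in mutant replicates 1 and 2. Sex was thus not balanced between the groups, and its part in a difference cannot be fully told apart from that of genotype. Defining markers of lung epithelium and lung mesenchyme were present in every library. Summed over 5 genes, the epithelial markers were 573 to 631 CPM in controls and 595.5 to 645.5 CPM in mutants. The 5 mesenchymal markers were 780 to 843 CPM in controls and 734 to 789 CPM in mutants. All 5 of these had log2 fold changes below 0. Wnt2 alone among them was called, lower at -0.33 (adjusted p = 0.00852, edgeR quasi-likelihood test). The summed mesothelial markers were 196 to 213 CPM in controls and 136 to 165 CPM in mutants, and 3 of 5 fell. Liver markers summed to 19.6 CPM in mutant replicate 4 and to at most 6.87 CPM elsewhere. Mutant replicate 4 also stood with the controls in the median shift of processed pseudogenes, and mutant replicate 1 alone held counts of Scgb1a1, both described below. Over the whole table, edgeR's quasi-likelihood test called 236 of 15788 genes (1.49%) at an adjusted p under 0.05, 89 higher and 147 lower in mutants.

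Enough counts for a test were found for 88 of the 159 genes near Myrf, 79 of them protein-coding, with 53 at lower and 35 at higher coordinates than Myrf. Per kb of exon, the highest levels over 8 libraries were those of Eef1g, a translation elongation factor subunit, at 393 CPM per kb and Cox8a, a cytochrome c oxidase subunit, at 256 CPM per kb. Ddb1, a subunit of the complex that recognises ultraviolet damage in DNA, followed at 140 CPM per kb. Next came Fth1, the ferritin heavy chain that stores iron, at 107 CPM per kb. Ganab, a glucosidase of the endoplasmic reticulum, had 75.5 CPM per kb. The lowest tested gene was Ms4a7 at 0.147 CPM per kb. Of the 71 genes left untested, 27 had no count in any library, 43 had 1 to 100 counts in all, and 54 stayed below 3 counts' worth of CPM in every library. The untested genes included 7 of the 8 Slc22a organic ion transporters of kidney and liver type and 13 of the 19 Ms4a genes, with 0 to 30 counts each over all libraries.

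**Figure D1:**
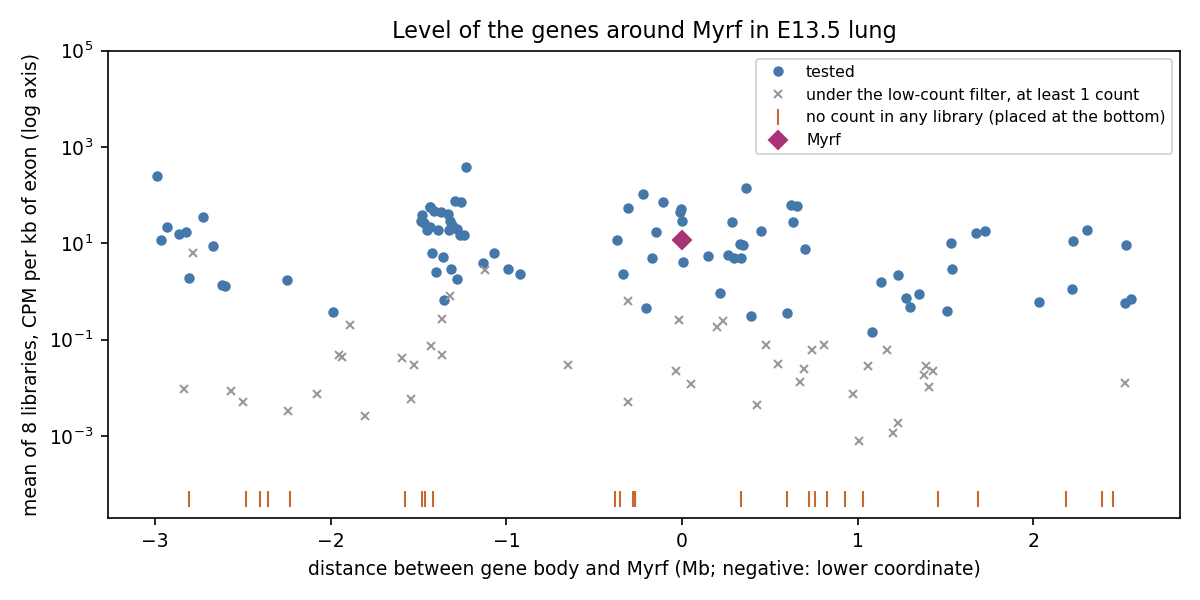
Mean level over 8 libraries (vertical axis, CPM per kb of exon, log axis) of the genes around Myrf against the distance from the Myrf gene body (horizontal axis, Mb). Dots are the 88 tested genes, crosses the untested genes with at least 1 count, ticks at the bottom the 27 genes with no count, and the diamond Myrf at 11.8 CPM per kb; the highest dot is Eef1g at 393 CPM per kb.

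Myrf encodes a membrane-bound transcription factor that releases its DNA-binding part by self-cleavage. It lies at chr19:10208272-10240748 on the minus strand (ENSMUSG00000036098.15). Its level was 113, 115, 107 and 120 CPM in control replicates 1 to 4 and 92.3, 84.3, 85.2 and 91.5 CPM in mutant replicates 1 to 4. Every mutant library was below every control library. The log2 fold change of mutant over control was -0.37 (SE 0.044, 95% interval -0.46 to -0.28, adjusted p = 0.00021 by edgeR's quasi-likelihood test), a drop by 22.5% in CPM. Counts were summed over all exons, and transcripts of an altered allele cannot be told apart from intact ones in them.

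Of the 88 tested neighbours, 1 changed at this threshold (1.14%, against 1.49% of all genes): Ms4a6c, which fell. Falls made up 0.931% and rises 0.564% of all genes, and none of the neighbours rose. At an unadjusted p under 0.05 there were 15 neighbours (17.0%, against 13.9% of all genes). Of these, 12 were lower (13.6% of the 88, against 7.99% lower among all genes). The other 3 were higher (3.41% of the 88, against 930 of 15788 among all genes). The groups of libraries did not overlap for 8 of the 88 neighbours (9.09%, against 7.37% of all genes). Lower were Ttc9c, AC121967.1, Tmem109, Ms4a6c, Ms4a6d, Mpeg1 and Zfp91 (7.95%, against 4.06% of all genes). Stx3 was higher (1.14%). The share called by the adjusted test was near that of the table. The unadjusted and non-overlapping shares of lower genes were above those of the table, and the shares of higher genes were below them. These differences were not tested. Of the 12 neighbours lower at an unadjusted p under 0.05, 3 were processed pseudogenes, a group lower across the genome, as described below. The median log2 fold change was -0.02 over the 88 neighbours, with 34 above and 54 below 0, and 0.00 over all genes. In the rest of chromosome 19, 7 of 446 tested genes were called, 2 higher and 5 lower. There 73 genes (16.4%, near the 17.0% of the neighbours) had an unadjusted p under 0.05, 40 lower and 33 higher. Without mutant replicate 4, 3 of 89 tested neighbours were called (against 2.99% of all genes), namely AC122119.2, Tmem109 and AC129773.1, all lower. With no filter on low counts, 5 of 132 were called (against 2.65% of all genes).

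For many of the neighbours the data set a narrow bound on the difference. The 95% interval of the fold change lay within 1.25-fold in either direction for 61 of 88 neighbours (69.3%, against 64.0% of all genes), and for 58 of the 60 with a mean of at least 10 CPM (96.7%, against 92.0%). All 60 of these better expressed neighbours had an interval that lies above the fall of Myrf itself (100%, against 97.1% of all genes at that level). Among the 28 with less than 10 CPM, the interval lay above it for 10 (35.7%, against 48.8% of all genes under 10 CPM). Over the 88 neighbours the share was 79.5%, near the 80.3% of all genes. For most of the low genes a fall of at least that size was thus not excluded at this depth.

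**Figure D2:**
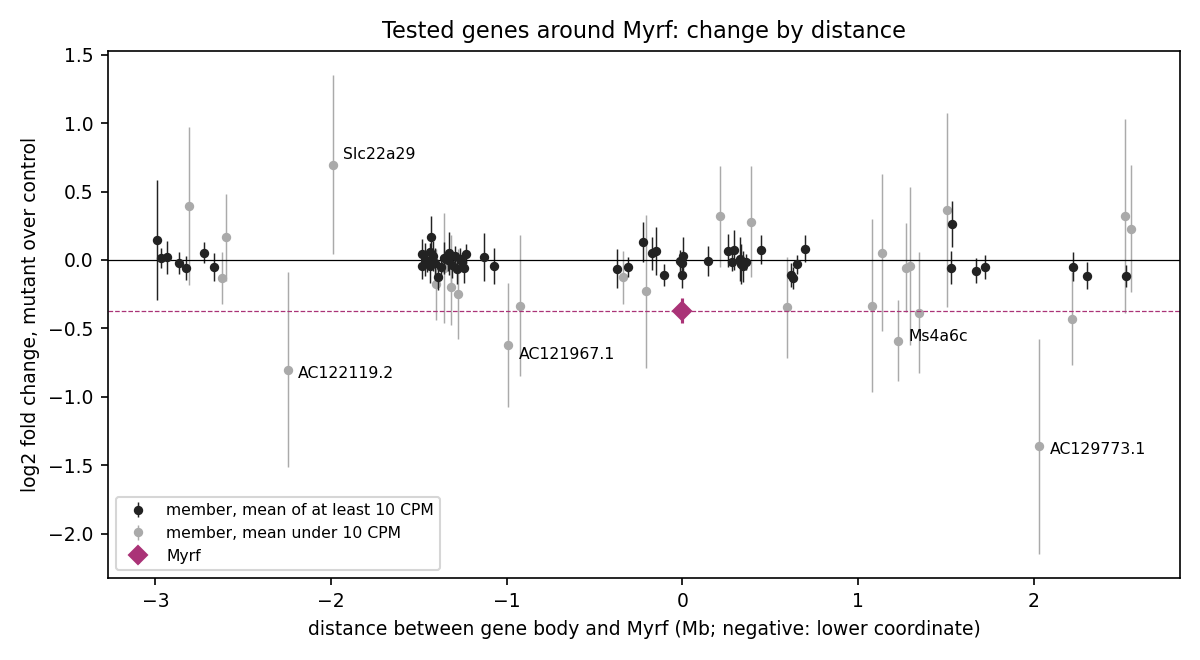
Log2 fold change of mutant over control (vertical axis) against distance from the Myrf gene body (horizontal axis, Mb) for 88 tested genes; bars are 95% intervals, black dots have a mean of at least 10 CPM, grey dots less, and the dashed line runs through the value of Myrf (-0.37). The black dots stay between -0.13 and 0.26 at every distance, while the grey dots scatter from -1.36 to 0.70 with wide bars.

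The genes that touch or flank Myrf kept levels close to those of the controls. Tmem258, which encodes a subunit of the oligosaccharyltransferase complex, ends 0.448 kb from Myrf. It was measured at 51.2, 47.7, 49.1 and 51.2 CPM in the controls and 46.0, 45.9, 44.2 and 49.1 CPM in the mutants. Mutant replicate 4 lay within the control range and the other mutants just below it. Mutant over control, the log2 fold change was -0.11 (95% interval -0.21 to -0.01, adjusted p = 0.309 by edgeR's quasi-likelihood test). Fen1, the flap endonuclease of DNA replication, 4.103 kb from Myrf, stood at 132, 128, 128 and 128 CPM in controls and 130, 124, 124 and 131 CPM in mutants. These groups overlapped, with a log2 fold change of -0.02 (95% interval -0.09 to 0.05). The bodies of Tmem258 and Fen1 share 156 bases on opposite strands, and the counting used strand. Dagla, a lipase that makes the endocannabinoid 2-arachidonoylglycerol, begins on the other side of Myrf at 4.517 kb and stood at 24.1, 23.2, 23.7 and 23.2 CPM in controls and 22.5, 23.2, 26.7 and 24.2 CPM in mutants. Its groups overlapped as well, with a log2 fold change of 0.03 (95% interval -0.10 to 0.17).

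The fatty acid desaturases introduce double bonds into long fatty acid chains. Fads1, the delta-5 enzyme, lies 11.4 kb from Myrf and stood at 220, 215, 204.5 and 223 CPM in controls and 220, 213, 204.5 and 222 CPM in mutants. The groups covered nearly the same range, and its log2 fold change was -0.01 (95% interval -0.09 to 0.07). Fads2, the delta-6 enzyme that acts first in the pathway, lies 106.5 kb away and stood at 252, 242, 239 and 251.5 CPM in controls and 235, 218, 218 and 241 CPM in mutants. Mutant replicates 2 and 3 were lowest and mutant replicate 4 lay inside the control range. The log2 fold change of -0.11 (95% interval -0.19 to -0.03) did not pass the adjusted test (adjusted p = 0.184, edgeR quasi-likelihood). Fads3, the related enzyme of sphingoid bases, had a log2 fold change of 0.07 (95% interval -0.11 to 0.24). Of the other lipid genes near Myrf, Bscl2, the seipin of lipid droplets, had 0.01, and none of the 6 tested members of the 7-gene lipid list was called. Outside the window, 12 genes that elongate, desaturate or activate fatty acids, or regulate these enzymes, were tested and none was called by edgeR; 1 of them, Elovl2, had an unadjusted p under 0.05, with a log2 fold change of -0.30.

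Farther out along the higher coordinates, the order of nearest tested genes was Dagla, Syt7, Lrrc10b, Sdhaf2, Cpsf7 and Tmem216. Syt7, a calcium sensor of vesicle fusion, stood at 41.1, 42.5, 42.4 and 41.9 CPM in controls and 40.4, 39.0, 42.6 and 45.6 CPM in mutants. The mutants spread to both sides of the controls. Cpsf7, a subunit of the complex that cleaves the end of messenger RNAs, had 177 to 183.5 CPM in controls and 177 to 180 CPM in mutants. Its interval for the log2 fold change, -0.08 to 0.05, was among the narrow ones. Lrrc10b, at 1.52 to 1.95 CPM in controls and 1.85 to 2.50 CPM in mutants, had 0.32 with an interval of -0.05 to 0.69, which spans differences from nearly none to above that of any better expressed neighbour. On the lower side, Rab3il1, an exchange factor for Rab GTPases, closed the 6 nearest with 33.3 to 39.3 CPM in controls and 36.1 to 38.6 CPM in mutants.

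**Figure D3:**
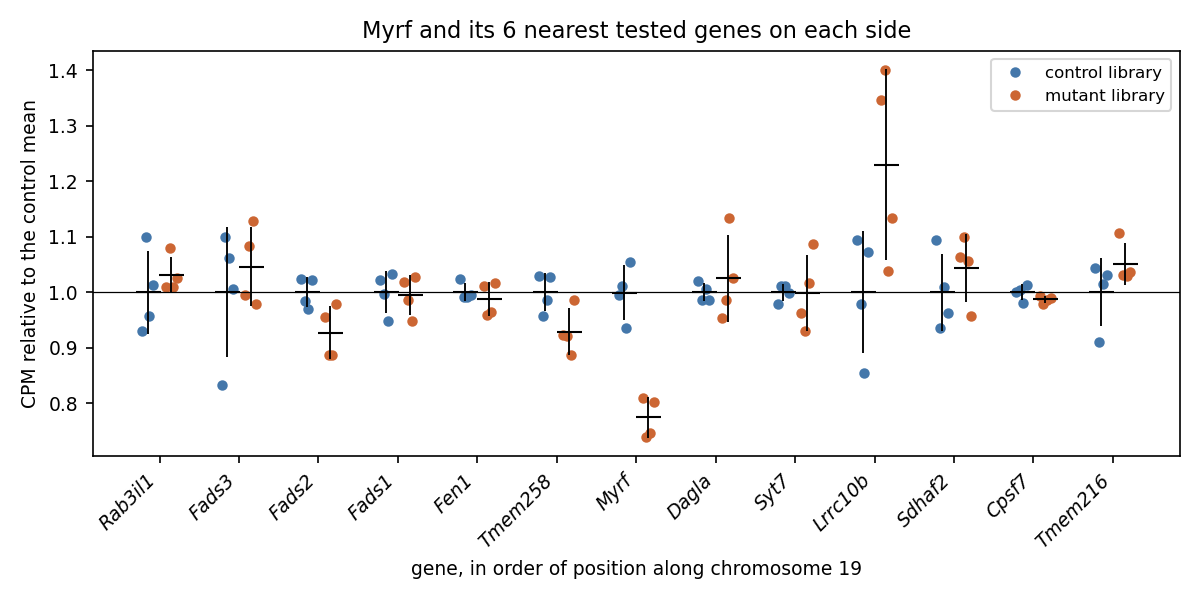
Levels of Myrf and the 6 nearest tested genes on each side, as CPM relative to the control mean (vertical axis), with genes in order along chromosome 19 (horizontal axis). Dots are single libraries, horizontal bars means of 4 and vertical bars SD; the 4 mutant dots of Myrf lie below its control dots, while for each of the 12 neighbours the groups overlap.

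Split by the gap between gene bodies, the neighbours showed no called gene in the 3 inner bands. Within 100 kb there were 7 genes, 4 tested, none called and a median log2 fold change of -0.01. From 100 to 500 kb there were 32 genes, 19 tested, none called and a median of -0.01. From 500 kb to 1 Mb, 7 of 19 genes were tested, none was called, and the median was -0.13. Of these 7, 6 were below 0, 2 had groups that did not overlap (AC121967.1 and Tmem109), and 3 had an unadjusted p under 0.05 (42.9%, against 13.9% of all genes), all lower. The third was Tmem132a. AC121967.1 and Pcna-ps2, another gene of this band below 0, are processed pseudogenes. As described below, that group was lower across the genome, with a median of -0.43 over 575 tested. Beyond 1 Mb, 58 of 101 genes were tested, 1 was called, and the median was -0.03, with 10 genes at an unadjusted p under 0.05 (17.2%), 7 lower and 3 higher. Within 500 kb, 2 of 23 tested genes had an unadjusted p under 0.05 (8.70%, Fads2 and Tmem258, both lower). There 20 of 23 intervals lay within 1.25-fold (87.0%, against 64.0% of all genes). The interval lay above the fall of Myrf for 22 of these 23 (95.7%, against 80.3% of all genes). Best1, an anion channel at 0.787 to 1.74 CPM, was the exception (-0.79 to 0.33).

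The relation between the size of the change and distance differed between the lower and the higher side of Myrf. Across the 60 neighbours with at least 10 CPM, Spearman's rho between the absolute log2 fold change and the gap was 0.0621. It was -0.129 over the 39 on the lower side and 0.605 over the 21 on the higher side, where nearer genes had the smaller differences. For the signed log2 fold change, rho was -0.0655 over all 60, 0.184 on the lower side and -0.526 on the higher side. These are descriptions across genes of the same 8 libraries, and the genes are not independent. In every library the median shift of these 60 genes from the control mean was within 0.02 on the log2 scale, with -0.02 in mutant replicates 2, 3 and 4 and 0.02 in mutant replicate 1.

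The band from 500 kb to 1 Mb held 2 adjacent membrane protein genes on the higher side with lower mutant values. Tmem109, an ion channel of intracellular membranes, stood at 111, 115, 114 and 107 CPM in controls and 99.6, 101, 102 and 106 CPM in mutants. The groups did not overlap, but mutant replicate 4 came within 1 CPM of the lowest control. For Tmem109 the log2 fold change was -0.13 (SE 0.037, adjusted p = 0.0839, edgeR quasi-likelihood test). Without mutant replicate 4 it passed the test at -0.15 (adjusted p = 0.0445). Tmem132a, a transmembrane protein, is singled out here after its value was seen, as the gene next to Tmem109. It had 288, 312, 299.8 and 297 CPM in controls and 277, 257, 279 and 296 CPM in mutants, and its log2 fold change of -0.11 had an adjusted p of 0.209 by edgeR's quasi-likelihood test. The groups overlapped through mutant replicate 4.

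None of the 13 tested genes on the list for RNA transcription and processing was called. One of them, Tkfc, encodes a metabolic kinase rather than an RNA-handling protein. Nxf1, the main export receptor of messenger RNA, stood at 240 to 255 CPM in controls and 250 to 265 CPM in mutants, with a log2 fold change of 0.06. Prpf19, a ubiquitin ligase of the spliceosome, had -0.03, Mta2, a subunit of the NuRD chromatin complex, had -0.01, and Polr2g, a subunit of RNA polymerase II, had -0.02. For 12 of the 13 the interval lay within 1.25-fold (92.3%, against 64.0% of all genes and 92.0% of those with at least 10 CPM).

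The 5 genes listed for replication and repair all had log2 fold changes below 0, from -0.12 to -0.02, and none was called. Zfp91, a zinc finger ubiquitin ligase, lies 2526 kb from Myrf and stood at 89.8, 86.9, 88.8 and 85.8 CPM in controls and 79.4, 81.4, 84.7 and 78.5 CPM in mutants. All mutants were below all controls, by about 1 CPM at the closest pair. Its log2 fold change was -0.12 (adjusted p = 0.148, edgeR quasi-likelihood test). Fam111a, a protease that acts at replication forks, had -0.11 with overlapping groups. Incenp, a scaffold of the chromosomal passenger complex, had -0.05 and Ddb1 had -0.02.

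Among the 6 genes listed for iron and mitochondria, which included the anion channel Best1, the spread in Cox8a and Fth1 between control libraries was wider than the difference between groups. Cox8a stood at 105, 140, 168.5 and 188.5 CPM in controls and 176, 165, 161 and 163 CPM in mutants. Fth1 stood at 320, 340, 367 and 398.5 CPM in controls and 401, 409, 387 and 360 CPM in mutants. Control replicate 1 was the lowest library for both genes, and the mutants lay inside or near the upper end of the control range. For Cox8a the log2 fold change was 0.15 (95% interval -0.29 to 0.58), and it was 0.13 for Fth1 (95% interval -0.02 to 0.27). None of the 6 was called, and Mrpl16, a mitochondrial ribosomal protein, had -0.05.

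Among 8 genes of vesicle and membrane traffic, Stx3, a syntaxin of apical membrane fusion, had the clearest separation. Its level was 14.5, 17.1 and 16.3 CPM in control replicates 2 to 4, with control replicate 1 lower still, and 17.5 to 19.5 CPM in mutants. The lowest mutant lay just above the highest control. The log2 fold change of 0.26 (SE 0.080, 95% interval 0.09 to 0.43) did not pass the adjusted test (adjusted p = 0.111, edgeR quasi-likelihood). Rtn3, a reticulon that shapes the endoplasmic reticulum, had 0.05, Osbp, a sterol carrier, had -0.05, and Stx5a, a syntaxin of the Golgi, had -0.01. Ttc9c, a tetratricopeptide protein outside these lists, stood at 80.8, 79.3, 82.0 and 77.8 CPM in controls and 68.3, 73.1, 76.3 and 75.6 CPM in mutants. Its groups did not overlap, and its log2 fold change of -0.13 missed the adjusted test (adjusted p = 0.155, edgeR quasi-likelihood).

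The transporter, neuronal and ciliary genes held no called member. Slc3a2, the heavy chain of amino acid transporters, had 92.5 to 106 CPM in controls and 94.8 to 113 CPM in mutants. Slc22a29, the only tested gene of its family, had 0.394 to 0.957 CPM in controls and 0.731 to 1.31 CPM in mutants. Its log2 fold change was 0.70 (95% interval 0.04 to 1.35, adjusted p = 0.325 by edgeR's quasi-likelihood test). With the Y-linked level as a covariate it was 0.09. In the 4 libraries with counts of Xist and of Y-linked genes alike it was 0.02. Slc15a3, a lysosomal peptide and histidine transporter, had -0.35 at about 2 CPM. Cntf, a neurotrophic factor, was near the limit of counting at 0.264 to 0.845 CPM. The ciliary transition zone genes Tmem138 and Tmem216 share a regulatory region, and their log2 fold changes were 0.01 and 0.07.

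The tested leukocyte genes near Myrf were few and low, and 1 of them fell. The list of 24 genes took in all 19 Ms4a genes by symbol, whether or not each is known from leukocytes. Of the 24, 8 were tested, 1 was called lower (against 0.931% of all genes) and the median log2 fold change was -0.19. Ms4a6c (chr19:11469366-11482192, plus strand), a member of the Ms4a family found on macrophages and monocytes, lies 1229 kb from Myrf. It stood at 5.69, 4.05, 5.47 and 6.53 CPM in controls and 3.54, 3.91, 3.56 and 3.32 CPM in mutants. All mutants were below all controls, with control replicate 2 only just above mutant replicate 2. The log2 fold change was -0.59 (SE 0.140, 95% interval -0.88 to -0.30, adjusted p = 0.0429 by edgeR's quasi-likelihood test). The call was lost in 10 of 17 alternative analyses, with log2 fold changes from -0.82 to -0.49 and adjusted p from 0.00447 to 0.125. Leaving out any single library other than control replicate 2 lost it. In the 4 libraries with counts of Xist and of Y-linked genes alike, the log2 fold change was -0.82 (adjusted p = 0.0917), and with the Y-linked level as a covariate -0.79 (adjusted p = 0.0313, both by edgeR's quasi-likelihood test). Near-identical copies of the family can share reads, so single-gene values in it are uncertain.

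Other leukocyte genes near Myrf did not pass the test. Mpeg1, a pore-forming protein of macrophages, stood at 5.17, 7.71, 4.96 and 4.84 CPM in controls and 3.82, 4.73, 4.78 and 3.32 CPM in mutants. The groups did not overlap, with mutant replicate 3 just below control replicate 4. Its log2 fold change was -0.43 (adjusted p = 0.220, edgeR quasi-likelihood test). Ms4a6d had 1.63 to 1.97 CPM in controls and 0.906 to 1.56 CPM in mutants, with a log2 fold change of -0.39 (adjusted p = 0.436 in the same edgeR test). Ms4a7, at 0.676 to 0.845 CPM in controls and 0.281 to 0.737 CPM in mutants, had a log2 fold change of -0.33 (95% interval -0.97 to 0.30). Ms4a4a had 0.05, Ms4a6b -0.05, Ms4a4d -0.04, and Lpxn, a focal adhesion protein of leukocytes, 0.23. The B-cell gene Ms4a1 had 1 count in all libraries together.

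Of the leukocyte markers elsewhere in the genome, Mrc1 fell too. Mrc1, the mannose receptor of macrophages, stood at 30.2, 27.1, 32.9 and 31.1 CPM in controls and 25.4, 24.0, 26.1 and 23.9 CPM in mutants. The groups did not overlap, and the log2 fold change was -0.29 (adjusted p = 0.0334, edgeR quasi-likelihood test). Csf1r, the receptor of the macrophage growth factor, had 0.03, Cd68 had -0.09, Ptprc had -0.13 and Tyrobp had -0.14, and none of these was called. Cd79a, with a mean of 0.681 CPM, had 0.13 and was not called. Of the 7 markers, 6 were tested and 1 was called lower (against 0.931% of all genes). Their summed level, to which Csf1r and Mrc1 contribute most, was 82.3 to 90.6 CPM in controls and 76.2 to 82.8 CPM in mutants. The T-cell marker Cd3e, the untested one, was at or near 0 in every library. In bulk tissue, fewer cells of a type and less RNA per cell cannot be told apart, and the part of cell number in the change of Ms4a6c was not tested.

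**Figure D4:**
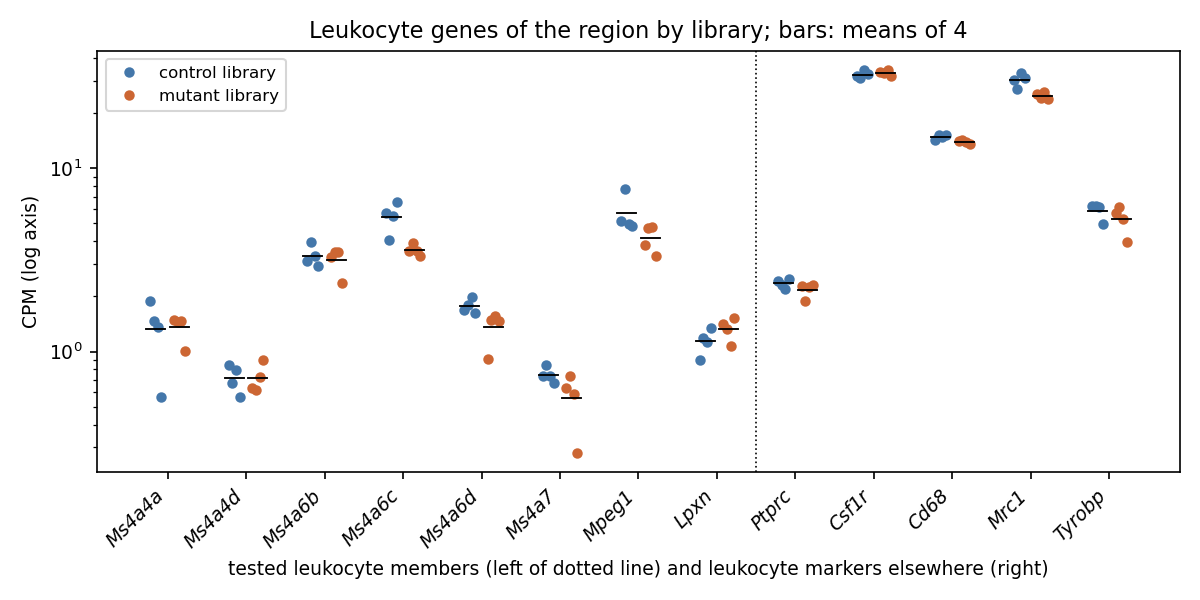
Level in CPM (vertical axis, log axis) of the 8 tested leukocyte genes near Myrf and of 5 leukocyte markers elsewhere, by library; dots are single libraries and bars means of 4. The mutant dots of Ms4a6c (3.32 to 3.91 CPM) lie below its control dots (4.05 to 6.53 CPM), those of Mrc1 likewise, while those of Csf1r overlap.

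The 2 largest log2 differences near Myrf were those of AC129773.1 and AC122119.2, both processed pseudogenes, copies of messenger RNAs inserted back into the genome. Of 16 such genes, 5 were tested, 3 had an unadjusted p under 0.05, all lower, and none was called by edgeR. AC129773.1, 2032 kb from Myrf, stood at 1.58, 0.957, 1.30 and 0.901 CPM in controls and 0.236, 0.450, 0.244 and 1.01 CPM in mutants. Mutant replicate 4 lay within the control range and the other mutants far below it. The log2 fold change was -1.36 (SE 0.373, adjusted p = 0.0759, edgeR quasi-likelihood test), and without mutant replicate 4 it passed at -1.80 (adjusted p = 0.00815). AC122119.2 showed the same order, with 2.08 to 3.96 CPM in controls, 1.04 to 1.58 CPM in mutant replicates 1 to 3 and 3.20 CPM in mutant replicate 4. AC121967.1 was low in all mutants, at 0.975 to 1.51 CPM against 1.63 to 2.58 CPM in controls, with a log2 fold change of -0.62 (adjusted p = 0.178, edgeR quasi-likelihood test). Rab11b-ps2 went the other way, at 0.40.

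Processed pseudogenes shared this pattern across the genome, so it was not particular to the neighbours of Myrf. Over 575 tested processed pseudogenes the median log2 fold change was -0.43, with 454 below and 121 above 0. Of them, 205 (35.7%, against 13.9% of all genes) had an unadjusted p under 0.05, 192 lower, and the adjusted test called 10 lower and 1 higher. On a log2 scale of CPM plus 0.1, their median shift from the control mean was 0.15, 0.10, -0.14 and -0.05 in control replicates 1 to 4. The mutant libraries had -0.28, -0.65, -0.51 and -0.01 in the same order. By this median shift mutant replicate 4 stood with the controls, as it did for AC129773.1, AC122119.2 and Pcna-ps2. All 9936 processed pseudogenes together held 0.278, 0.290, 0.242 and 0.246% of counts in control replicates 1 to 4. The mutant libraries held 0.241, 0.245, 0.225 and 0.242%, so by share of counts mutant replicate 4 did not stand apart from the other mutants. Pseudogenes share sequence with their parent genes, so their counts are uncertain, and what moves them in 3 of the 4 mutant libraries was not tested.

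**Figure D5:**
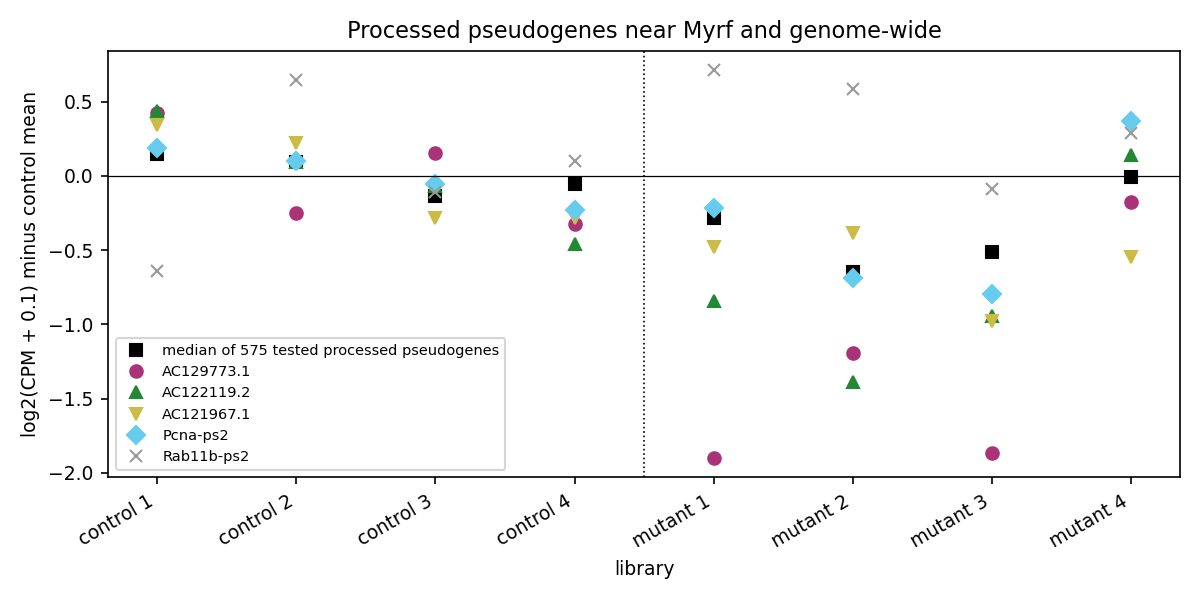
Shift from the control mean in log2(CPM + 0.1) (vertical axis) for each library (horizontal axis), as the median of 575 tested processed pseudogenes (squares) and for the 5 tested near Myrf. The squares lie at -0.28, -0.65 and -0.51 in mutant replicates 1, 2 and 3 and at -0.01 in mutant replicate 4.

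One untested neighbour was counted in a single library. Scgb1a1, the main secretoglobin of club cells in mature airways (chr19:9083636-9087958), had 277 counts in mutant replicate 1 and 0 in the other 7 libraries. It was looked at after its values were seen. In the whole table, 4 genes had at least 30 counts in 1 library and at most 2 in each other library, and all 4 were in mutant replicate 1. The others were Pln with 111 counts and Ckmt2 with 51, both genes of cardiac and striated muscle, and Sec14l3 with 37, a lipid transfer protein of airway cells. Further airway genes were chosen after their values were seen, and their counts are not scaled for library size. Cyp2f2, a cytochrome P450 of club cells, had 2, 8, 5 and 2 counts in controls and 82, 53, 14 and 8 in mutants. Cbr2 had 12, 18, 8 and 6 counts in controls and 130, 85, 29 and 25 in mutants. Neither was limited to mutant replicate 1, and Scgb3a2 was counted in every library. Scgb3a1 had 10 counts and Sftpd 16 in mutant replicate 1, with at most 2 in each other library. Without mutant replicate 1 the log2 fold change of Ms4a6c was -0.58 (adjusted p = 0.086, edgeR quasi-likelihood test) and none of the neighbours was called.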

How the data were processed

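RNA from E13.5 lung was sequenced in 8 libraries, 4 cre control and 4 mutant. The authors deposited raw counts, whole read pairs per gene, made with featureCounts 1.6.4 on GENCODE vM25 exons with strand option 2, per the file headers. STAR, DESeq2 and GRCm38 (mm10) are named in the submitters' processing notes. The version of STAR was not given in the sources used here.

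Symbols were matched for 55141 of 55401 genes, and 1 of the 159 neighbours has none. All libraries entered 1 fit in edgeR 4.0.16 (R 4.3.3) with its low-count filter, TMM scaling, robust dispersions and the two-sided quasi-likelihood F test. P-values were adjusted by Benjamini-Hochberg over 15788 genes, with a threshold of 0.05. Alternatives used DESeq2 1.42.0, limma-voom 3.58.1, other scaling and filters, a covariate, a block, and left-out libraries. The steps were tested on simulated data. No library was a duplicate of another.

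Distance is the gap between gene bodies. The neighbours, lists and tests were chosen with earlier results of these data known. Named genes are the 6 nearest tested on each side, every called gene, the next 6 by p, up to 4 per list and the 5 highest per length, with others chosen after their values were seen. Depth limits precision as given by the intervals, which cover the spread between these libraries.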

Additional observations from a re-analysis of the deposited data

Results flagged for a closer look

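In 10 of 94 groups of 4 libraries, 1 library stood apart from the other 3 by Dixon's test at its 95% critical value. Chance gives about 1 such group in 20. The library with the widest gap was mutant replicate 1 for Scgb1a1, a secretoglobin of club cells, with 10.9 CPM against 0 in the other mutants. Scgb1a1 was looked at after its values were seen, so its place among the 10 was fixed by that choice.

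Among genes near Myrf with higher levels, 1 library was high for 3. Stx5a stood at 114.9 CPM in mutant replicate 3, against 107 in the others. Bscl2 stood at 33.6 CPM in control replicate 4, against 29.4 to 29.8. Fen1 stood at 132 CPM in control replicate 1, against 128 in the others. Tmem216 was also high, at 17.6 CPM in mutant replicate 1 against 16.4 to 16.5. A single library was low for Vps37c, an ESCRT subunit, at 45.5 CPM in mutant replicate 4 against 50.1 to 50.4, and for Osbp, at 79.2 CPM in control replicate 1 against 85.1 to 85.6.

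Among the low leukocyte genes, Ms4a4a stood at 1.01 CPM in mutant replicate 4, against at least 1.45 in the other mutants, and Ms4a6d at 0.906 CPM in mutant replicate 1, against 1.46 to 1.56. Mpeg1 stood at 7.71 CPM in control replicate 2, against 4.84 to 5.17. None of these values was given an explanation, and each rests on 1 library.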

How the results depend on the processing

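Among all genes, 236 were called. The count was 380 with DESeq2, 791 with no low-count filter, 142 without robust estimation, 95 with the Y-linked level as a covariate, 541 with the replicate block and 96 to 479 on leaving out 1 library. In the 4 libraries that held counts of Xist and of Y-linked genes alike, an analysis chosen after seeing the data, it was 87.

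The 1 call near Myrf, lower, became 0 with limma-voom, without robust estimation and in those 4 libraries. With no low-count filter 5 were called (against 2.65% of all genes), 2 higher (Fth1, Stx3) and 3 lower (AC122119.2, Ms4a6c, AC129773.1), 1 at 100 to 500 kb and 4 beyond 1 Mb. Leaving out 1 library gave 0 to 3 calls. The 3 came without mutant replicate 4 (against 2.99% of all genes): AC122119.2, Tmem109 and AC129773.1. The range was 0 to 1 between 500 kb and 1 Mb, and 0 to 2 beyond 1 Mb. The cause was not tested. Same-numbered libraries correlated at 0.0811, 0.0648, 0.181 and 0.0125. Control replicates 1, 2 and 3 each correlated best with the mutant of the same number. Control replicate 4 correlated best with mutant replicate 1 (0.133). The labels give only a replicate number, and whether same-numbered libraries share a batch or litter was not tested. Under the replicate block 1 neighbour was called, Ms4a6c at -0.57 (adjusted p = 0.0405). Myrf kept its direction and call in all 17 alternatives, at -0.41 to -0.34.

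Of 762 values of 45 named neighbours, 704 kept direction and side of the threshold, 10 lost the call, 5 gained it and 43 changed sign. Those 43 fell in 17 genes with a main log2 fold change within 0.07. Using those 4 libraries, the log2 fold change was -0.0481 for Slc3a2, 0.0466 for Stx5a, -0.0545 for Bscl2, -0.0285 for Eef1g, 0.0926 for Syt7, -0.0247 for Sdhaf2, -0.0020 for Tmem216, -0.0900 for Tmem138 and 0.0156 for Ddb1. With the Y-linked covariate it was -0.0230 for Slc3a2, 0.0217 for Stx5a, -0.0358 for Bscl2, 0.0246 for Syt7, -0.0041 for Tmem138 and 0.0081 for Ddb1. With no filter it was 0.0073 for Stx5a, 0.0025 for Mta2, 0.0076 for Fads1 and 0.0067 for Syt7, and with total-count scaling 0.0032 for Stx5a, 0.0036 for Fads1 and 0.0021 for Syt7. Leaving out 1 library gave -0.0280 to 0.0155 for Stx5a, -0.0764 to 0.0247 for Tmem223, -0.0685 to 0.0111 for Polr2g, -0.0049 to 0.0619 for Bscl2, -0.0108 to 0.1167 for Fads3, -0.0296 to 0.0208 for Fads1, -0.0325 to 0.0022 for Fen1, -0.0126 to 0.0680 for Dagla, -0.0487 to 0.0344 for Syt7, -0.0453 to 0.0590 for Tmem138 and -0.1958 to 0.2857 for Ms4a4a. Low counts limit the genes under 10 CPM, whose intervals were wide.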
